A study of Mus musculus with 40 samples.

Results

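The genes Apoa1, Apoc3, Apoa4 and Apoa5 form an apolipoprotein cluster on mouse chromosome 9, and their transcript levels were examined here in duodenum, ileum and liver after small bowel resection (SBR). The members were the rows with these symbols in the deposited expression table, 4 of 15958 genes, and all 4 passed the filter on low values in every fit. The 40 libraries came from wild type C57BL/6 male mice that were 8 weeks old at surgery and had either a sham operation or a resection of the small bowel, put at 50 to 60% by the labels and at a larger share by the study's methods. Dosing began 3 weeks after surgery and lasted 7 weeks, with vehicle in the Sham Vehicle and SBR Vehicle groups and with daily WUSTL0717 at 30 mg/kg in the SBR WUSTL0717 group. WUSTL0717 is an agonist of the liver X receptors (LXR), made as an amide analog of GW3965 and described by the study as largely retained in the gut. The duodenum and the ileum each gave 3 Sham Vehicle, 4 SBR Vehicle and 4 SBR WUSTL0717 libraries in batch 1. The liver gave 5, 8 and 5 libraries in batch 2. There was no sham group on WUSTL0717, so the agonist could be compared with vehicle only after resection.

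Apolipoproteins are the protein coat of lipoproteins and are made mainly by hepatocytes and by enterocytes, the absorptive cells of the small intestine. Apoa1 encodes the main protein of high-density lipoprotein (HDL), which accepts cholesterol from the transporter Abca1. Apoc3 encodes a small protein of triglyceride-rich lipoproteins and HDL that slows their lipolysis and clearance. Apoa4 encodes an intestinal apolipoprotein carried on chylomicrons, the particles in which dietary fat leaves the enterocyte, and Apoa5 encodes a liver protein that favours triglyceride lipolysis by lipoprotein lipase. In rodents the first 3 are transcribed in both organs, whereas Apoa5 is known as a gene of the liver.

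The annotated cluster spans 43340 bases of chromosome 9 in GRCm38. Apoa1 (ENSMUSG00000032083.8) lies at chr9:46228580-46230466 on the plus strand. Apoc3 (ENSMUSG00000032081.10) lies at chr9:46232933-46235636 on the minus strand, 2466 bases beyond the end of Apoa1. Apoa4 (ENSMUSG00000032080.6) follows at chr9:46240696-46243459 and Apoa5 (ENSMUSG00000032079.12) at chr9:46268633-46271919, both on the plus strand, and 25173 bases separate them. All 4 are annotated as protein coding. Antisense transcripts overlap 2 members: Gm47528 overlaps Apoa4 by 1337 bases, Gm10680 overlaps Apoa4 by 839 bases and Gm47544 overlaps Apoa5 by 1331 bases. Of these antisense genes only Gm47528 had values in the table, and whether reads were counted by strand was not given in the sources used here, so reads of Apoa4 and Gm47528 cannot be told apart in the bases they share.

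RefSeq promoter windows (GRCm38.p6, plus strand, 250 bases before to 50 bases after the start site) were matched for 3 of the 4 members and are shown because these genes lie side by side yet differed in how they moved between groups. Positions count from the RefSeq start site of each window, which lies 50 bases downstream of the annotated gene start given above for Apoa1, 148 bases downstream for Apoa4 and at that start for Apoa5, of whose 2 RefSeq windows that one is shown. The windows cover chr9:46228380-46228679 for Apoa1, chr9:46240594-46240893 for Apoa4 and chr9:46268383-46268682 for Apoa5. Capitals mark matches, on either strand, to any motif searched:
Apoa1: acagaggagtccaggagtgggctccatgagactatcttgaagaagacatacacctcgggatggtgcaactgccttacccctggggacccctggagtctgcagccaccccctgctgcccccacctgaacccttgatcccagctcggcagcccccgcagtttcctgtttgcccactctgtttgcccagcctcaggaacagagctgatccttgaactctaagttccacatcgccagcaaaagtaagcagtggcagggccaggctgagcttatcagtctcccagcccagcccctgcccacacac
Apoa4: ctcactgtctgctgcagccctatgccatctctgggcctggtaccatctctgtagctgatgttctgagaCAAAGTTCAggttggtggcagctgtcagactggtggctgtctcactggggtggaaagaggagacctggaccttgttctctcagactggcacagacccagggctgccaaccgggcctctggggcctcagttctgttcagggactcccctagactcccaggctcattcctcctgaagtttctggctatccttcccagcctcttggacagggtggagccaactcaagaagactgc
Apoa5: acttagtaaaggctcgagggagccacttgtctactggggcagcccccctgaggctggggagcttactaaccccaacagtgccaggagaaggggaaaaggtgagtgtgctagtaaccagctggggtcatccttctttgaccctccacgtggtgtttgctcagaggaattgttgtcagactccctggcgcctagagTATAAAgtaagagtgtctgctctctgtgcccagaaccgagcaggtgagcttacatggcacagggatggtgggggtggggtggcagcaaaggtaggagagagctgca
Searched first was AGGTCA, the nuclear receptor half-site, which 16.3% of 32851 windows of this length held. Its direct repeats with 1 base (DR1) and with 4 bases (DR4, the spacing known for LXR) between half-sites were held by 0.0396% and 0.0152% of windows, and each contains the half-site. TATAAA was held by 13.6% of windows. CAAAGTCCA, an HNF4-type sequence, was held by 0.475%, and CAAAGTNCA, a looser form that contains it and was added after the windows had been read, by 1.41%. CCAAT was held by 37.4% and TGACGTCA, the cyclic AMP response element, by 1.79%. In the Apoa5 window TATAAA was found with its first base at position -56 from the start site. In the Apoa4 window CAAAGTNCA was found with its first base at position -182, that is -34 from the annotated gene start. No other match was found in the 3 windows, and none at all in that of Apoa1, which says only that these letters are not there.

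All levels are log2 TPM, a transcript abundance scaled to gene length and library total, as the authors deposited them, after correction for batch with ComBat. The correction sets each gene's intestinal and liver libraries near a common mean: for 99.4% of genes the means of the 2 batches lay within 1 log2 unit. Albumin (Alb) was listed at 9.21 in a resected liver and at 12.7 in an ileal library. Levels are therefore compared within a batch and never between liver and intestine or between genes. Sequencing depth is unknown. Tests were limma fits over every gene whose mean in the tissue's libraries reached 1 log2 TPM, with Benjamini-Hochberg adjustment over all genes tested and a threshold of 0.05, and exact two-sided permutation tests over libraries for each member alone. Nothing in the labels ties libraries of different tissues to 1 mouse, and in whole tissue fewer cells of a type and less RNA per cell cannot be told apart.

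Region markers matched the tissue labels, since all 4 ileum markers and all 4 duodenum markers differed between regions in the labelled direction in each of the 3 treatment groups. The mean of 6 pancreatic acinar markers varied among duodenal libraries from 2.01 to 7.77, whereas it lay between -0.58 and -0.45 in every ileal library. It was 7.70 in SBR Vehicle liver replicate 7, against 2.21 to 2.52 in the other liver libraries. The mean of 6 hepatocyte markers was 9.91 in ileal SBR WUSTL0717 replicate 2, where Alb was 12.7, against 7.00 to 8.45 in the other ileal libraries. It was 7.12 in SBR Vehicle liver replicate 2, against 7.65 to 8.51 in the other liver libraries. Beside the main liver and ileum results, values without these libraries are also given.

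**Figure D1:**
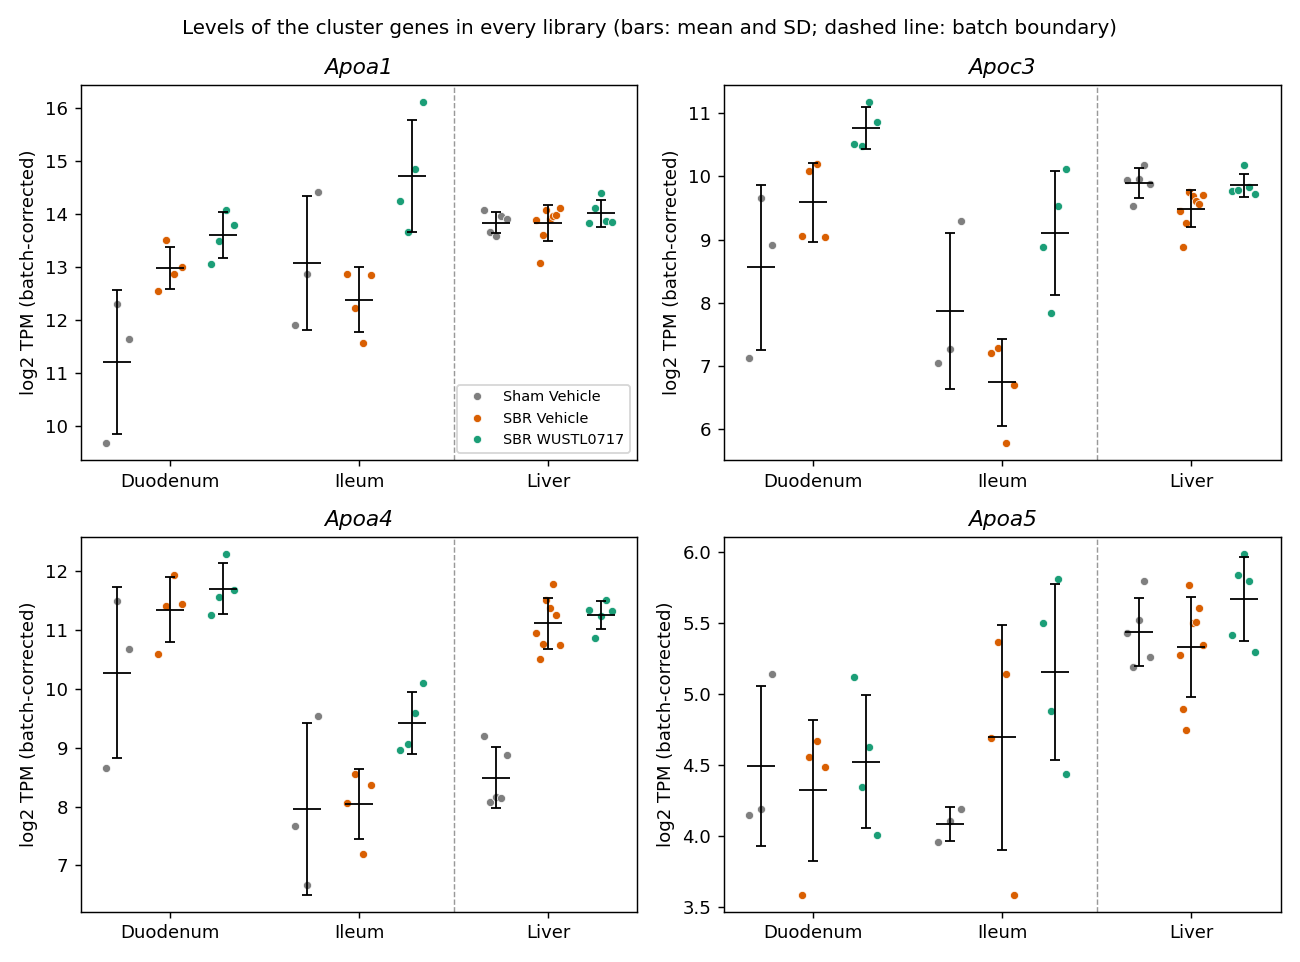
Batch-corrected log2 TPM of Apoa1, Apoc3, Apoa4 and Apoa5 in every library (points), with the mean and SD of each group, by tissue and treatment. A dashed line separates batch 1 (duodenum, ileum) from batch 2 (liver), between which levels are not comparable; hepatic Apoa4 lay between 8.08 and 9.20 in sham mice and between 10.51 and 11.78 after resection.

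Within a tissue, Apoa4 in the liver had the largest difference of the cluster after resection on the deposited values, although relative to the median gene those of duodenal Apoa1 and Apoc3 between SBR WUSTL0717 and sham were larger (2.72 and 2.52, not called on the deposited values, against 2.37 and 2.49). In the sham livers Apoa4 stood at 9.20, 8.08, 8.17, 8.14 and 8.88 log2 TPM. In the 8 SBR Vehicle livers the lowest value was 10.51, the median 11.1 and the highest 11.78. In the SBR WUSTL0717 livers the values were 11.35, 10.86, 11.24, 11.52 and 11.33. Every resected liver, treated or not, therefore lay above every sham liver. Apoa4 rose by 2.62 log2 units (SE 0.23, limma adjusted p = 8.11e-08), a 6.15-fold difference, from 8.49 ± 0.51 (SD, n = 5) in sham to 11.11 ± 0.44 (SD, n = 8) after SBR with vehicle. The exact permutation p was 0.000777, the smallest that 5 against 8 libraries allow. Between SBR WUSTL0717 and sham the rise was 2.76 (SE 0.25, limma adjusted p = 1.13e-06), with an exact permutation p of 0.00794, again the smallest possible. In that comparison 28.8% of genes were called, 96.9% of them higher, against 54.5% after median centring, and 27.4% did not overlap upward. Both comparisons use the same sham libraries. The resection comparison had a broad background: 41.9% of 15901 genes passed the same test, 37.4% as higher and 4.47% as lower, and the median gene rose by 0.25. Relative to that median Apoa4 was 2.37 higher. Of the called genes 89.3% were higher, against 41.5% on values centred on each library's median, where Apoa4 was 2.31 higher and called. Groups did not overlap, with the resected group higher, for 15.6% of genes. Without SBR Vehicle replicate 2 the rise was 2.71 and without replicate 7 it was 2.60, both called.

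WUSTL0717 left hepatic Apoa4 within the range set by resection. The difference between SBR WUSTL0717 and SBR Vehicle was 0.14 log2 units (95% interval -0.33 to 0.62, limma adjusted p = 0.834), and all 5 treated livers lay inside the SBR Vehicle range. Differences of up to 0.62 in favour of the treated livers are not excluded by that interval.

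Gm47528, the opposite-strand transcript that overlaps Apoa4, moved in the same livers. It stood at 1.81 to 2.29 in sham, 2.82 to 4.39 in SBR Vehicle and 2.83 to 4.22 in SBR WUSTL0717 livers. Its rise after resection was 1.74 (SE 0.24, limma adjusted p = 1.06e-05), smaller than that of Apoa4. The part of shared reads in either value was not tested.

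Markers of other cells moved in the same comparison. All 4 cholangiocyte markers and all 4 stellate cell markers were higher after SBR with vehicle, the list means running from 3.41 to 4.32 in sham and from 5.52 to 6.25 in SBR Vehicle livers for cholangiocyte markers, and from 3.39 to 3.93 and from 4.59 to 5.38 for stellate cell markers. Of 8 markers of intestinal epithelium, which share Epcam with the cholangiocyte list, 6 were higher and none was lower, the list mean running from 5.62 to 5.94 in sham and from 6.42 to 7.07 in SBR Vehicle livers. Of 7 enterocyte markers none was called and the list's median change was 0.00. Of 6 hepatocyte markers 3 were lower, none was higher, and the median change was -0.38. Of 4 Kupffer cell markers 1 was lower, and 2 of 4 immune and 2 of 6 smooth muscle markers were higher. Their part in the rise of Apoa4 was not tested beyond centring on the hepatocyte markers, under which Apoa4 was 3.12 higher.

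Apoc3 moved the other way in the same livers. Its values were 9.94, 9.53, 9.96, 10.18 and 9.88 in sham livers and ran from 8.88 through a median of 9.59 to 9.75 in SBR Vehicle livers, so the groups overlapped. Apoc3 fell by 0.41 log2 units (SE 0.14, limma adjusted p = 0.0293), where 4.47% of genes were called lower. Relative to the median gene it was 0.65 lower, with a difference of -0.71 on median-centred values. The exact permutation p was 0.0179. This call was lost when sham replicate 1, 3, 4 or 5 was left out, with adjusted p from 0.0521 to 0.0839, and without SBR Vehicle replicate 2 the fall was 0.32 and still called (adjusted p = 0.0237), and without replicate 7 the difference was -0.42 (adjusted p = 0.0379). The call was also lost in the unmoderated test (adjusted p = 0.0625) and with the 2 compared groups fitted alone (adjusted p = 0.0503). On values centred on the hepatocyte markers, which were lower in the same comparison, the difference was 0.09 in the other direction and not called.

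In SBR WUSTL0717 livers Apoc3 stood at 9.77, 9.79, 10.18, 9.83 and 9.73. Of these, 1 lay just above the highest sham value (10.180 against 10.176) and the others within the sham range. The difference from SBR Vehicle was 0.37 (95% interval 0.07 to 0.67), which did not pass across genes (limma adjusted p = 0.171), although 4 of the 5 treated livers lay above every SBR Vehicle liver and the exact permutation p was 0.0140. The fit passed 4.10% of genes in this comparison. Centred on each library's median gene, the difference was 0.38 and called (adjusted p = 0.00782), and centred on the hepatocyte markers it was 0.03 and not called (adjusted p = 0.774). Without SBR Vehicle replicate 2 it was 0.28 (adjusted p = 0.163), and without replicate 7 it was 0.38 (adjusted p = 0.201). In this comparison all 6 hepatocyte markers had a positive change with a median of 0.33 and none called, 3 of 4 cholangiocyte, 3 of 8 intestinal epithelial and 1 of 4 stellate cell markers were called lower, and 1 of 4 Kupffer cell markers was called higher, all 4 being positive. Their part in the Apoc3 value was not tested beyond the hepatocyte centring. The difference between SBR WUSTL0717 and sham was -0.04 (95% interval -0.37 to 0.30) on the deposited values, where the median gene was 0.27 higher. Relative to that gene Apoc3 was -0.30, and on median-centred values the difference was -0.34 and called (adjusted p = 0.0266), against -0.24 with quantile scaling (adjusted p = 0.0782) and 0.12 with hepatocyte centring (adjusted p = 0.221).

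Apoa1, the HDL gene, showed no called change in liver. It ran from 13.60 to 14.08 in sham livers, from 13.09 to 14.12 in SBR Vehicle livers and from 13.83 to 14.41 in SBR WUSTL0717 livers, and the 3 ranges overlapped. SBR Vehicle differed from sham by -0.01 (95% interval -0.40 to 0.38, limma adjusted p = 0.965), and SBR WUSTL0717 from SBR Vehicle by 0.18 (95% interval -0.21 to 0.57, adjusted p = 0.709). Apoa5 ran from 5.19 to 5.80, from 4.75 to 5.77 and from 5.30 to 5.99 in the same order. Its difference after resection was -0.11 (95% interval -0.45 to 0.24, limma adjusted p = 0.629), and between treated and untreated resected livers it was 0.34 (95% interval -0.01 to 0.69, limma adjusted p = 0.306). The latter was called on values centred on the median gene (limma adjusted p = 0.0499). Centred on the hepatocyte markers it was -0.0061 and not called. Relative to the median gene, Apoa1 and Apoa5 were 0.26 and 0.35 lower after resection. On values centred on the median gene the Apoa5 difference was -0.41 and called (adjusted p = 0.00779), and on values centred on the hepatocyte markers it was 0.39 in the other direction and also called (adjusted p = 0.00255), as was Apoa1 at 0.48 (adjusted p = 0.000388).

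Differences from Apoa1 within each library showed that the 4 genes did not move as a block in liver. Of 27 such tests (3 members, 9 comparisons, exact permutation with Benjamini-Hochberg adjustment over the 27), 2 passed, both between SBR Vehicle and sham liver. Apoa4 minus Apoa1 was -5.35 ± 0.39 (SD, n = 5) in sham and -2.72 ± 0.35 (SD, n = 8) after resection, a shift of 2.63 (exact permutation p = 0.000777, adjusted p = 0.0105). Apoc3 shifted by -0.39 against Apoa1 (exact permutation p = 0.000777, adjusted p = 0.0105), with values of -3.95 ± 0.23 in sham and -4.34 ± 0.08 in resected livers. Without SBR Vehicle replicate 2 the shifts were 2.61 and -0.41, and without replicate 7 they were 2.63 and -0.38 (adjusted p = 0.0170 for each). Both are differences within a library, so a shift shared by all genes on the deposited scale cancels in them, whereas one present before ComBat, which rescales each gene, need not cancel exactly. In the intestine, where the smallest p is 0.0286, 2 duodenal shifts were at that limit and did not pass (adjusted p = 0.129 for both): Apoa5 minus Apoa1 shifted by -1.94 between SBR Vehicle and sham, with the lowest listed Apoa5 value among its libraries, and Apoa4 minus Apoa1 by -0.98 between SBR WUSTL0717 and sham. In liver between SBR WUSTL0717 and sham the Apoa4 shift was 2.59 at the smallest p the groups allow (exact permutation p = 0.00794, adjusted p = 0.0714).

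Among the 8 SBR Vehicle livers the members varied together on the deposited values, but the number of pairs that passed depended on single libraries and on scaling. Apoa1 and Apoc3 had a Pearson r of 0.97 (exact permutation p = 0.000868, adjusted over 6 pairs 0.00521) and a Spearman rho of 0.88 (exact permutation p = 0.00724, adjusted 0.0435). The other pairs had r between 0.62 and 0.82, of which 4 passed for Pearson (adjusted p from 0.0352 to 0.0495) and none for Spearman (adjusted p from 0.0688 to 0.360). Without the 2 libraries farthest from the median of the first gene, r was 0.70 for Apoa1 with Apoc3 and 0.82 for Apoa4 with Apoa5. It was -0.20 for Apoa1 with Apoa4, 0.32 for Apoa1 with Apoa5, 0.24 for Apoc3 with Apoa4 and 0.56 for Apoc3 with Apoa5. Leaving those libraries out also narrows the range of the first gene, so the drop does not show that r rests on them. With single libraries left out, r ran from 0.33 to 0.83 for Apoa1 with Apoa4. It ran from 0.75 to 0.84 for Apoa1 with Apoa5 and from 0.52 to 0.88 for Apoc3 with Apoa4. On median-centred values none of the 6 passed, and r was 0.89 for Apoa1 with Apoc3, 0.37 for Apoa4 with Apoa5 and 0.01 for Apoa1 with Apoa5. It was -0.20 for Apoa1 with Apoa4, -0.16 for Apoc3 with Apoa4 and -0.02 for Apoc3 with Apoa5. Of the 6 pairs, 1 passed when replicate 1, 2, 4, 5 or 7 was left out, 3 without replicate 3, 5 without replicate 6 and 6 without replicate 8.

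**Figure D2:**
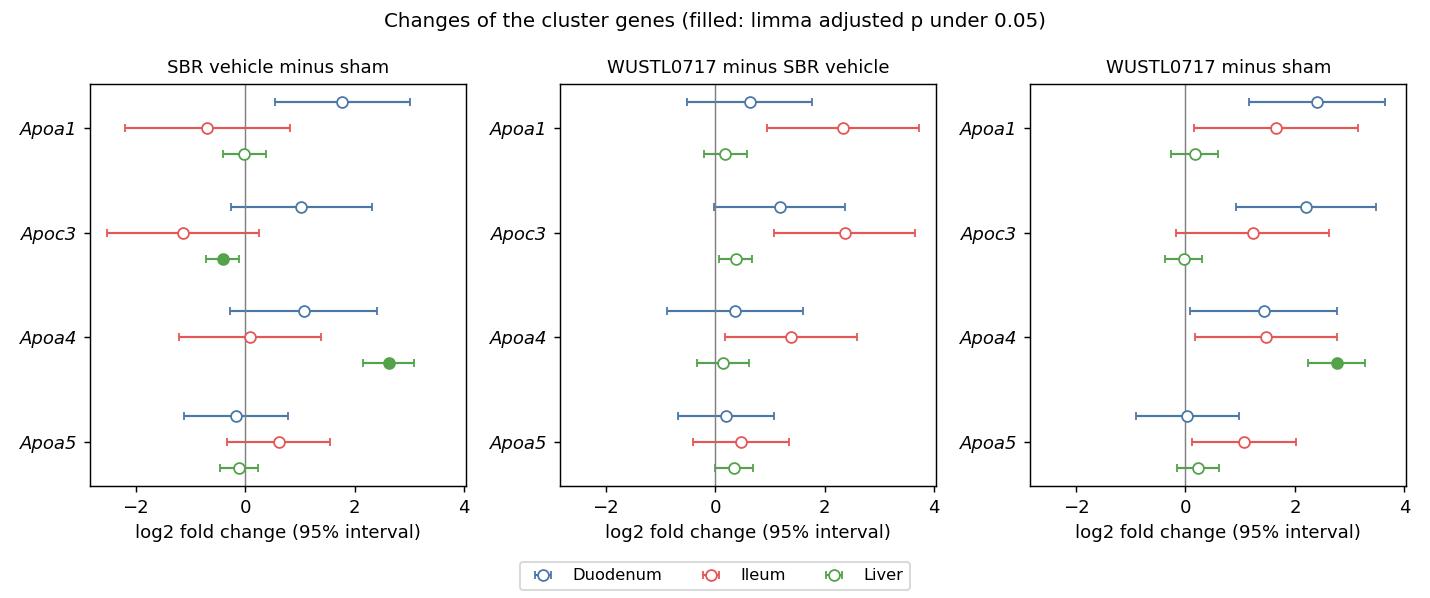
Log2 fold change of each cluster gene in 3 comparisons within each tissue, with the 95% interval from limma; filled points passed an adjusted p of 0.05. In liver Apoa4 was 2.62 higher after resection with vehicle and 2.76 higher with WUSTL0717 than in sham, and Apoc3 was 0.41 lower after resection with vehicle; no other value passed.

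In the ileum Apoa1, Apoc3 and Apoa4 stood higher with WUSTL0717 than with vehicle after resection, without overlap between the groups. Apoa1 stood at 12.88, 12.24, 11.58 and 12.85 in SBR Vehicle ilea and at 14.25, 13.67, 14.85 and 16.12 in SBR WUSTL0717 ilea. Apoc3 stood at 7.20, 7.28, 5.78 and 6.69 with vehicle and at 8.89, 7.84, 9.54 and 10.12 with the agonist. Apoa4 stood at 8.06, 8.55, 7.19 and 8.37 with vehicle and at 8.96, 9.06, 9.59 and 10.10 with the agonist. For each of these 3 genes all 4 treated ilea lay above all 4 vehicle ilea, as was so for 2.56% of 15772 genes. The differences were 2.34 (SE 0.64) for Apoa1, 2.36 (SE 0.59) for Apoc3 and 1.39 (SE 0.55) for Apoa4, and each had an exact permutation p of 0.0286, the smallest that 4 against 4 libraries allow. None passed limma across genes, with adjusted p of 0.455, 0.420 and 0.650 and unadjusted p of 0.00320, 0.00182 and 0.0271. The fit called 11 genes, 0.0697% of those tested, and 6.87% had an unadjusted p under 0.05.

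Apoa5 behaved less evenly in these ilea. Its values were 4.69, 5.37, 5.14 and 3.59 with vehicle and 5.50, 4.88, 5.81 and 4.44 with WUSTL0717, and the groups overlapped. The difference was 0.46 (95% interval -0.41 to 1.34, limma adjusted p = 0.932), and ran from 0.09 to 0.70 with single libraries left out. The value 3.59 was the lowest of the gene in the intestine and occurred, to all deposited digits, in 2 libraries. Whether it stands for libraries with no reads of the gene was not tested, and if so the intestinal Apoa5 differences that include it are measured from a floor.

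Differences from Apoa1 were also read within these ilea. Apoc3 minus Apoa1 was -5.65 ± 0.50 (SD, n = 4) with vehicle and -5.63 ± 0.34 (SD, n = 4) with WUSTL0717, a shift of 0.02 (exact permutation p = 1, where the smallest possible is 0.0286), which with these SDs does not show that the distance was unaffected. Apoa4 minus Apoa1 was -4.35 ± 0.47 with vehicle and -5.30 ± 0.58 with WUSTL0717, a shift of -0.95 that did not pass (exact permutation p = 0.0571, adjusted p = 0.220). Ileal SBR WUSTL0717 replicate 2, the library highest in hepatocyte markers, had the lowest Apoa1 and Apoc3 of its group. Without it the differences were 2.69 for Apoa1, 2.78 for Apoc3 and 1.51 for Apoa4, with limma adjusted p of 0.230, 0.196 and 0.346. Of 7 enterocyte markers 0 were called in this comparison, with a median change of 0.06. Of 6 hepatocyte markers 0 were called, 5 were positive and the median change was 0.60, the list mean running from 7.03 to 7.90 with vehicle and from 7.74 to 9.91 with WUSTL0717. With that mean as a covariate, added after the data had been seen, the differences were 2.98 for Apoa1, 3.17 for Apoc3 and 1.71 for Apoa4, none called (limma adjusted p = 0.110, 0.108 and 0.200). The listed genes did not move evenly. Cyp2e1 ran from 6.00 to 7.80 with vehicle and from 8.02 to 11.37 with WUSTL0717. Alb overlapped, from 8.47 to 10.13 and from 9.09 to 12.70. Which ileal cells carried the listed transcripts was not tested.

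Resection alone gave no called change in the ileum. Sham ilea were spread widely, with Apoa1 at 11.92, 12.87 and 14.43, Apoc3 at 7.05, 7.27 and 9.29, Apoa4 at 7.67, 6.67 and 9.54, and sham replicate 3 highest for each of the 3. Ileal SBR Vehicle differed from sham by -0.69 for Apoa1 (95% interval -2.19 to 0.81), -1.13 for Apoc3 (-2.53 to 0.26), 0.08 for Apoa4 (-1.21 to 1.38) and 0.61 for Apoa5 (-0.34 to 1.56). Without sham replicate 3 the differences were -0.01 for Apoa1, -0.42 for Apoc3 and 0.87 for Apoa4. The limma adjusted p ran from 0.738 to 0.999, with 0.349% of genes called. SBR WUSTL0717 ilea lay above sham by 1.65 for Apoa1, 1.23 for Apoc3, 1.47 for Apoa4 and 1.07 for Apoa5, with adjusted p from 0.284 to 0.434 in a fit that called 2.17% of genes. Without ileal SBR WUSTL0717 replicate 2 these differences were 2.00, 1.65, 1.59 and 1.16, with adjusted p from 0.220 to 0.270, and without sham replicate 3 they were 2.33 for Apoa1, 1.94 for Apoc3 and 2.26 for Apoa4 (adjusted p = 0.126, 0.144 and 0.0525). Apoa5 alone did not overlap there, its sham values being 3.96, 4.11 and 4.19, in a comparison where 9.46% of genes did so upward. Epithelial list means ran from 6.49 to 6.58 in sham, 6.67 to 7.07 in SBR Vehicle and 6.89 to 7.21 in SBR WUSTL0717 ilea. Hepatocyte list means ran from 7.00 to 7.28, 7.03 to 7.90 and 7.74 to 9.91 in the same order. Over 13 alternative settings Apoa1 in SBR WUSTL0717 against sham ileum ran from 1.16 to 2.63 and Apoc3 from 0.74 to 2.47. The part of these markers was not tested beyond those settings.

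In the duodenum Apoa1 was lowest in sham mice. The sham values were 9.69, 12.31 and 11.64, the SBR Vehicle values 12.55, 13.52, 12.88 and 13.01, and the SBR WUSTL0717 values 13.07, 13.50, 14.08 and 13.80. All 8 resected duodena lay above all 3 sham duodena, and sham replicate 1 lay far below the other 2. The difference from sham was 1.78 (SE 0.57, exact permutation p = 0.0286, limma adjusted p = 0.274) for SBR Vehicle, where no gene was called by limma, 0% of 15093, and 16.1% had an unadjusted p under 0.05. It was 2.41 (SE 0.57, exact permutation p = 0.0286, limma adjusted p = 0.0881) for SBR WUSTL0717, where 0.802% of genes were called. SBR WUSTL0717 and SBR Vehicle duodena overlapped, with a difference of 0.63 (95% interval -0.52 to 1.77, limma adjusted p = 1) that was -0.30 under quantile scaling. The p of 0.0286 is again the smallest possible, and groups did not overlap upward for 3.41% and 5.58% of genes. Without sham replicate 1 the differences were 1.01 and 1.64, neither called, and without sham replicate 2 the latter was 2.95 and called (adjusted p = 0.0487). The median gene was 0.36 lower in SBR Vehicle than in sham and 0.32 lower in SBR WUSTL0717, relative to which Apoa1 was 2.14 and 2.72 higher. On values centred on each library's median the latter comparison called Apoa1 (adjusted p = 0.0327) and Apoc3 (adjusted p = 0.0389).

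Duodenal Apoc3 stood at 7.12, 9.66 and 8.91 in sham, at 9.05, 10.08, 10.19 and 9.04 in SBR Vehicle and at 10.52, 10.48, 11.18 and 10.87 in SBR WUSTL0717 libraries. The treated duodena lay above every other duodenum. They were 1.17 (SE 0.55) above SBR Vehicle (exact permutation p = 0.0286, limma adjusted p = 0.950) and 2.20 (SE 0.59) above sham (exact permutation p = 0.0286, limma adjusted p = 0.132). Groups failed to overlap upward for 2.11% and 5.58% of genes in these comparisons, and limma called 0.258% in the first. With quantile scaling the difference from SBR Vehicle was 0.51 (adjusted p = 0.892). Without sham replicate 1 the difference from sham was 1.48 (adjusted p = 0.270).

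Apoa4 in the duodenum ran from 8.66 to 11.49 in sham, from 10.60 to 11.93 in SBR Vehicle and from 11.26 to 12.30 in SBR WUSTL0717 libraries, and all 3 ranges overlapped. The difference from sham was 1.07 (95% interval -0.27 to 2.41, limma adjusted p = 0.380) with vehicle and 1.43 (95% interval 0.09 to 2.77, adjusted p = 0.272) with the agonist, and these were 0.26 and 0.62 without sham replicate 1 and 1.68 and 2.04 without sham replicate 2, none called. Between the resected groups it was 0.36 (95% interval -0.88 to 1.60, adjusted p = 1), and -0.23 under quantile scaling. Gm47528 did not follow this overlap: it ran from 1.29 to 1.80 in sham and from 2.98 to 3.91 in resected duodena, and was called between SBR WUSTL0717 and sham (2.04, limma adjusted p = 0.0189). Apoa5 lay between 3.59 and 5.14 in all duodenal libraries, with differences of -0.17, 0.20 and 0.03 in the 3 comparisons and limma adjusted p from 0.859 to 1.

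Pancreatic acinar markers ran from 3.81 to 7.64 in sham, 2.01 to 6.98 in SBR Vehicle and 4.69 to 7.77 in SBR WUSTL0717 duodena, with none of 6 called in any of the 3 comparisons and a median change of 2.13 between SBR WUSTL0717 and SBR Vehicle. With that mean as a covariate, an alternative added after the data had been seen, Apoa1 was 1.70 above sham in SBR Vehicle and 2.42 in SBR WUSTL0717, neither called. Enterocyte markers had a median change of 0.80 in SBR Vehicle and 0.47 in SBR WUSTL0717 against sham, with 0 and 1 of 7 called and 6 and 7 positive. Their list mean ran from 4.03 to 4.85 in sham, 4.93 to 5.45 in SBR Vehicle and 4.97 to 5.40 in SBR WUSTL0717 duodena, so that all 8 resected duodena lay above all 3 sham duodena, as for Apoa1. Hepatocyte markers ran from 6.89 to 7.11 in sham, 5.24 to 6.77 in SBR Vehicle and 5.92 to 7.13 in SBR WUSTL0717 duodena, with a median change of -1.08 in SBR Vehicle against sham. In that comparison all 4 cholangiocyte and all 4 stellate cell markers had a negative change, with medians of -0.67 and -0.69. So had all 6 acinar, all 5 tested smooth muscle and all 4 immune markers, with medians of -1.78, -0.55 and -0.49. The median over all genes was -0.36, and none of these lists had a called gene. Which duodenal cells carried the genes of the liver cell lists was not tested. The part of all these markers in the duodenal values was not tested either.

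The 2 regions differed most in Apoa4. Duodenal Apoa4 exceeded ileal Apoa4 in all 3 treatment groups, by 2.32 (SE 0.68) in sham, 3.30 (SE 0.59) in SBR Vehicle and 2.28 (SE 0.59) in SBR WUSTL0717 mice, with limma adjusted p of 0.0266, 0.000160 and 0.00321. Apoc3 was also lower in ileum, by 2.85 (SE 0.60, adjusted p = 0.000576) in SBR Vehicle and 1.66 (SE 0.60, adjusted p = 0.0230) in SBR WUSTL0717 mice, whereas the sham difference of -0.69 was not called (adjusted p = 0.502). In both resected groups no ileal value of Apoc3 or Apoa4 reached the lowest duodenal one, as was so for 5.77% and 6.37% of genes. The background was 3.83%, 6.77% and 7.13% of genes called lower in ileum in the same order, against 14.6%, 56.9% and 55.9% called in either direction, and the median gene was 0.52, 0.98 and 0.95 higher in ileum. Of the called genes 73.8%, 88.1% and 87.2% were higher in ileum, against 41.7%, 46.7% and 46.8% after median centring.

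Cell type markers also differed between the regions. Which intestinal cells carried the genes of the cholangiocyte and hepatocyte lists was not tested. In sham, SBR Vehicle and SBR WUSTL0717 mice in turn, 3, 7 and 7 of 8 intestinal epithelial markers, 0, 6 and 3 of 6 smooth muscle markers, 1, 4 and 4 of 4 cholangiocyte markers and 1, 3 and 4 of 6 hepatocyte markers were called higher in ileum. Of 7 enterocyte markers 5 were called higher and 1 lower in each group, and all 6 acinar markers were called lower. Their part was not tested beyond centring on the epithelial markers, under which Apoa4 differed by -3.33, -4.81 and -3.88, each called.

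The sham call for Apoa4 was the least firm of these. The exact permutation p was 0.200 where 3 against 3 libraries cannot go below 0.1, and the call was lost without ileal sham replicate 1 or 2 or duodenal sham replicate 2 or 3 (adjusted p from 0.0785 to 0.162). In its place, leaving out ileal sham replicate 1 or duodenal sham replicate 2 called Apoa1 (adjusted p 0.0422 and 0.0428). The Apoc3 call in SBR WUSTL0717 mice was lost without ileal replicate 2 (adjusted p = 0.1003) or duodenal replicate 3 (adjusted p = 0.0586).

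Neither Apoa1 nor Apoa5 had a called regional difference on the deposited values with all libraries and no block. For Apoa1, ileum minus duodenum was 1.87 (SE 0.71, limma adjusted p = 0.0784) in sham, -0.60 (adjusted p = 0.410) in SBR Vehicle and 1.11 (adjusted p = 0.126) in SBR WUSTL0717 mice. Apoa5 showed -0.41, 0.37 and 0.63 with adjusted p from 0.185 to 0.567. With the replicate number as a block Apoa1 was called in sham (adjusted p = 0.0409). On values centred on the epithelial markers the ileal difference of Apoa1 was -2.11 in SBR Vehicle (adjusted p = 0.0184), and that of Apoa5 was -1.41 in sham and -1.13 in SBR Vehicle (adjusted p = 0.0481 and 0.0439), all of them called. Whether resection acted differently in the 2 regions was tested as an interaction: the difference of effects was -2.46 for Apoa1 (SE 0.93, limma adjusted p = 0.308), -2.16 for Apoc3 (SE 0.91, adjusted p = 0.337), -0.99 for Apoa4 and 0.78 for Apoa5, with 0.0754% of genes called. With single libraries left out the Apoa4 value ran from -1.63 to -0.18. For WUSTL0717 the differences were 1.71 (95% interval -0.09 to 3.50) for Apoa1, 1.19 for Apoc3, 1.03 for Apoa4 and 0.26 for Apoa5, all with an adjusted p of 1, and 0.0251% of genes called. No member passed either test, so a different response of ileum and duodenum was not shown for any of the 4, and the intervals are wide.

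**Figure D3:**
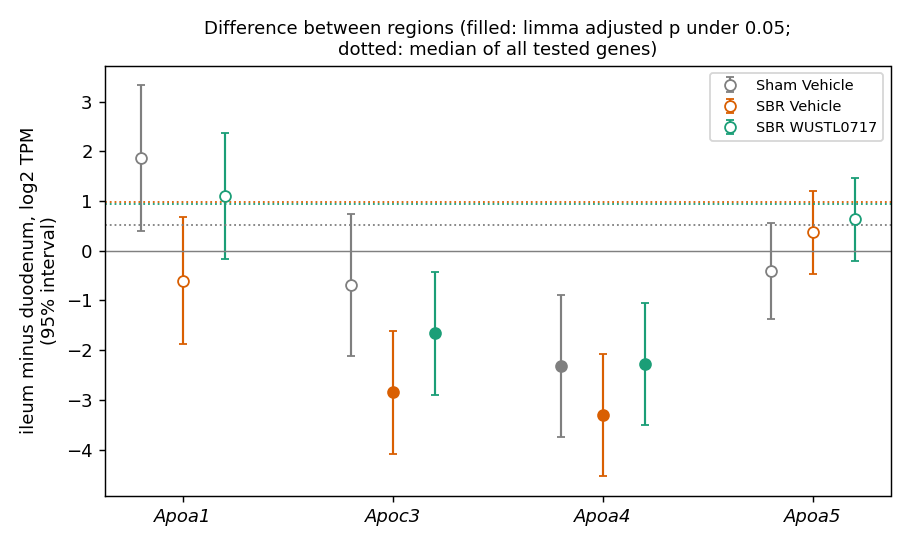
Ileum minus duodenum in log2 TPM for each cluster gene and treatment group, with the 95% interval from limma; filled points passed an adjusted p of 0.05, and dotted lines give the median of all tested genes. Apoa4 was lower in ileum in all 3 groups (2.32, 3.30 and 2.28) and Apoc3 in both resected groups.

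Ordered by mean, the 6 intestinal groups ranked differently for each member. Apoa1 ran from 14.72 in SBR WUSTL0717 ileum through 13.62 in SBR WUSTL0717 duodenum, 13.08 in sham ileum, 12.99 in SBR Vehicle duodenum and 12.39 in SBR Vehicle ileum to 11.21 in sham duodenum, and no 2 neighbours in that order were separated (exact permutation p from 0.0857 to 0.914). Apoc3 ran from 10.76 in SBR WUSTL0717 duodenum to 6.74 in SBR Vehicle ileum, and only the first step, down to 9.59 in SBR Vehicle duodenum, separated its neighbours (exact permutation p = 0.0286). For Apoa4 the 3 duodenal groups came first, at 11.71, 11.35 and 10.28, and only SBR WUSTL0717 ileum at 9.43 and SBR Vehicle ileum at 8.04 were separated neighbours. Apoa5 ran from 5.16 in SBR WUSTL0717 ileum to 4.09 in sham ileum with no separated neighbours. Among the liver groups the one step without overlap was that of Apoa4 from SBR Vehicle, 11.11, down to sham, 8.49.

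Genes around the cluster were read for comparison, from a list of 10. In SBR Vehicle against sham liver 3 of the 10 were called higher, Tagln by 0.34, Cep164 by 0.38 and Pafah1b2 by 0.43, where 37.4% of all genes were called higher, with values near the median change of 0.25 over all genes and far below that of Apoa4. The other 7 lay between 0.04 and 0.24 and were not called. In SBR WUSTL0717 against SBR Vehicle ileum none of the 10 was called, the list's median was 0.04, and the values ran from -0.33 for Zpr1 to 0.72 for Sidt2.

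**Figure D4:**
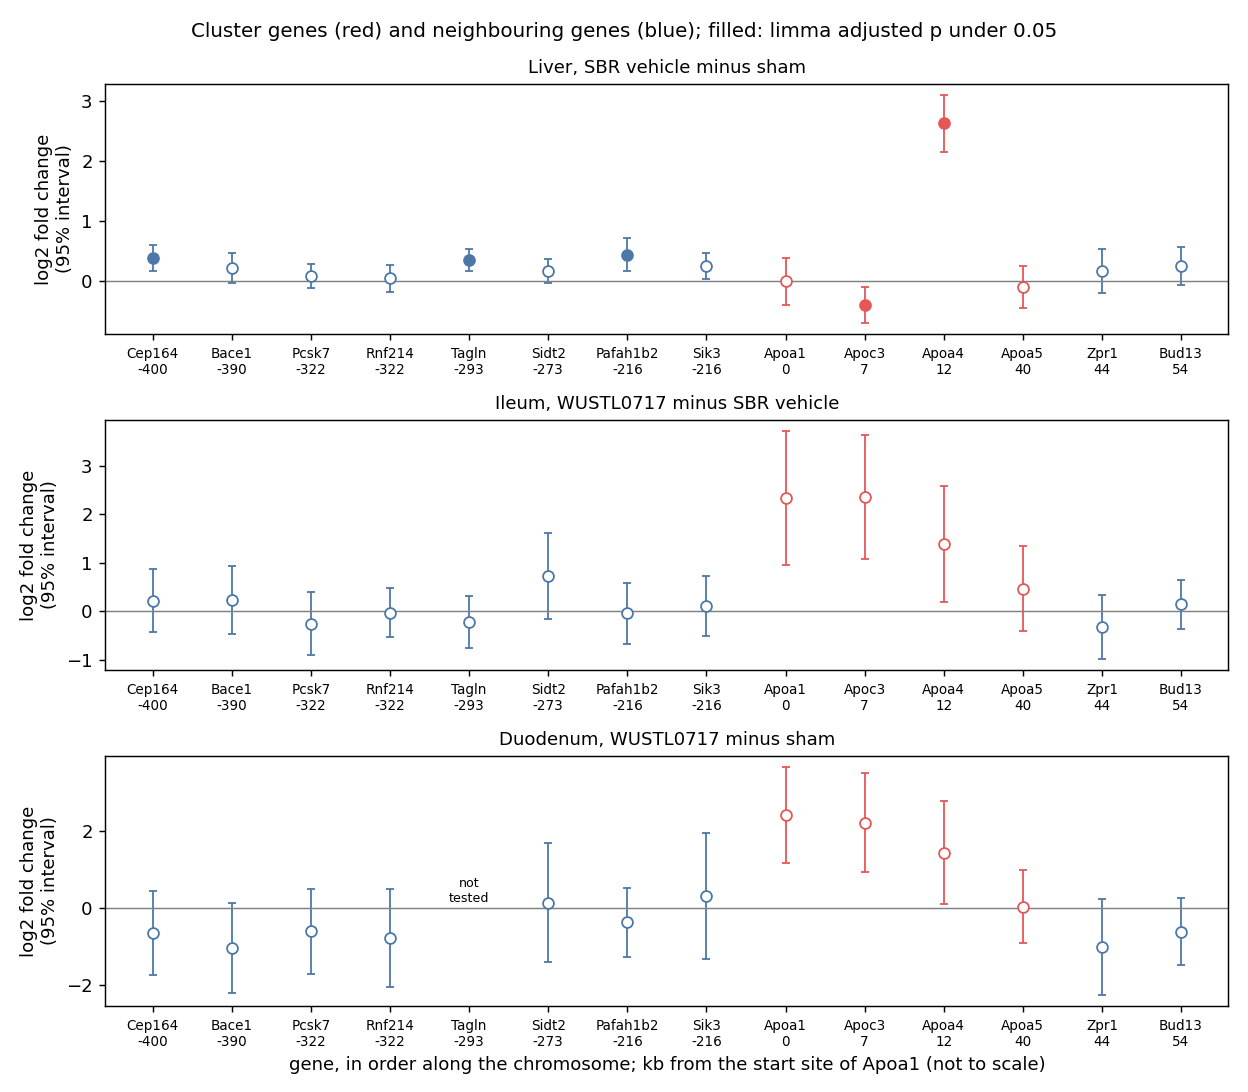
Log2 fold change with the 95% interval from limma for the 4 cluster genes (red) and 10 neighbouring genes (blue) in chromosome order, labelled by distance in kb from the Apoa1 start site (not to scale), in 3 comparisons. The hepatic rise of Apoa4 (2.62) stands beside neighbours between 0.04 and 0.43, and Tagln was under the filter in duodenum.

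Transcription regulators known to act on these genes were described from a list of 20. In ileum, SBR WUSTL0717 against SBR Vehicle, 1 of the 20 was called, where 0.0697% of all genes were, namely Srebf1, the LXR target that drives fatty acid synthesis, which rose by 3.39 (SE 0.52, limma adjusted p = 0.0427). Nr0b2, the corepressor SHP, differed by 1.65 (adjusted p = 0.310) and Ppara, the fatty acid receptor, by 1.98 (adjusted p = 0.501). In duodenum SBR WUSTL0717 against sham, Ppara rose by 3.25 (adjusted p = 0.00624) and Creb3l3, a hepatic and intestinal activator of apolipoprotein genes, by 2.16 (adjusted p = 0.0180), 2 of 20 called beside 0.802% of all genes. In SBR Vehicle against sham liver 4 of 20 were higher and 3 lower, where 37.4% of all genes were called higher and 4.47% lower, including Egr1 (1.82 higher, adjusted p = 7.77e-05) and Mlxipl, the glucose sensor ChREBP, which fell by 0.75 (adjusted p = 1.02e-06). Against SBR Vehicle, 2 of 20 were higher and 1 lower in SBR WUSTL0717 livers, where 4.10% of all genes were called. Mlxipl was 0.38 higher (adjusted p = 0.0173) and Nr0b2 1.16 higher (adjusted p = 0.0358), and Hnf4g, a nuclear receptor related to HNF4A, fell by 0.43 (adjusted p = 0.0278).

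Genes of HDL formation, 11 in all, were described beside Apoa1. In ileum, SBR WUSTL0717 against SBR Vehicle, 2 of 11 were called beside 0.0697% of all genes, both cholesterol exporters: Abca1 rose by 2.79 (SE 0.34, limma adjusted p = 0.0165) and Abcg1 by 2.30 (SE 0.33, adjusted p = 0.0304), and the list's median was 0.68 against 0.00 over all genes. In duodenum Abca1 rose by 3.55 (SE 0.50, adjusted p = 0.0136) and was the only one of 11 called, beside 0.258% of all genes. In liver the same comparison called 1 of 11 and 4.10% of all genes, the 1 being Lipc, hepatic lipase, which rose by 0.41 (adjusted p = 0.0454). After resection with vehicle, liver Abcg1 rose by 0.86 (adjusted p = 1.07e-05) while Apom fell by 0.59 (adjusted p = 0.00343) and Lipc by 0.43 (adjusted p = 0.00458), with 2 higher and 3 lower of 11, beside 37.4% and 4.47% of all genes.

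Genes of chylomicron assembly, 15 in all, were described beside Apoa4. In SBR WUSTL0717 against sham duodenum 7 of 15 were called, beside 0.802% of all genes, and all of those were higher, with a list median of 1.80 against -0.32 over all genes. They included the fatty acid transporter Cd36 (2.81, limma adjusted p = 0.0165), the acyl-CoA synthetase Acsl5 (2.56, adjusted p = 0.0246) and the fatty acid binding protein Fabp2 (3.45, adjusted p = 0.0348), which is also one of the enterocyte markers. Against SBR Vehicle only Cd36 was called in duodenum (2.81, adjusted p = 0.0196), beside 0.258% of all genes, and in ileum none of the 15 was called, beside 0.0697%, all 15 having a positive change with a median of 0.70. In SBR Vehicle liver 5 of 15 were higher than in sham and 1 lower, near the 37.4% and 4.47% of all genes, with Cd36 up by 1.18 (adjusted p = 9.44e-05), the droplet protein Plin2 up by 1.08 (adjusted p = 0.000117), whereas Dgat2 fell by 0.69 (adjusted p = 0.000111).

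Genes of triglyceride lipolysis, 14 in all, were described beside Apoc3 and Apoa5. In ileum, SBR WUSTL0717 against SBR Vehicle, 1 of 14 was called beside 0.0697% of all genes, namely Apoc1, a small apolipoprotein of another cluster, which rose by 3.62 (SE 0.49, limma adjusted p = 0.0233). Apoe differed by 2.17 (adjusted p = 0.400) and Lpl, lipoprotein lipase, by 1.71 (adjusted p = 0.560). In liver after resection with vehicle, Lpl rose by 1.80 (adjusted p = 7.97e-08) and Sorl1 by 1.38 (adjusted p = 2.81e-07), with 3 higher and 2 lower of 14, beside 37.4% and 4.47% of all genes. Between treated and vehicle resected livers 1 of 14 was called, beside 4.10% of all genes, namely Sorl1, which fell by 0.50 (adjusted p = 0.0402).

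Finally, the genes most like each member were read from values centred on group means, as a description over libraries that share tissue and preparation. Over 22 intestinal libraries Apoa1 was most like Apoc3 (r = 0.90), then Cyp3a11 (0.89) and Cyp2b10 (0.88), among 15922 genes. Apoc3 was most like Apoa1, Npl (0.90) and Cdr2 (0.88), and Apoa4 was most like Apoc3 (0.88), Ada (0.88) and Cdr2 (0.85). Apoa5 stood apart from the other members, with r of -0.12, 0.12 and 0.05 to Apoa1, Apoc3 and Apoa4, and was most like Cdkn1a (0.72), Epop (0.72) and Apoc2 (0.71). Over 18 liver libraries the members were less alike in rank: Apoa1 and Apoc3 had an r of 0.86, but Apoc3 ranked only 147th by likeness to Apoa1, where Spp2 (0.95), Enpp2 (0.94) and F10 (0.94) led. Unnamed transcripts left aside, the leading genes were Fxyd1, Sil1 and Ndufa13 for Apoc3 (r from 0.97 to 0.98), F2r, Ndufaf7 and Lama3 for Apoa4 (0.83 to 0.84), and Ap5s1, Rdh16 and Ell for Apoa5 (0.93 to 0.96). Hepatic Apoa4 had r of 0.47, 0.43 and 0.33 to Apoa1, Apoc3 and Apoa5. Without SBR Vehicle replicate 2, an alternative chosen after the data had been seen, over 17 libraries, r between Apoa1 and Apoc3 was 0.73, r of Apoa4 to Apoa1, Apoc3 and Apoa5 was 0.28, 0.24 and 0.21, and the genes just named had r from 0.88 to 0.91 for Apoa1, 0.95 to 0.96 for Apoc3, 0.80 to 0.82 for Apoa4 and 0.92 to 0.97 for Apoa5.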

How the data were processed

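RNA was measured by ribosomal RNA-depleted sequencing of duodenum, ileum and liver. Per the labels and the methods of the study, the authors aligned reads with STAR to GRCm38 (Ensembl annotation), counted uniquely aligned unambiguous reads with featureCounts, computed edgeR TMM factors on the counts, and deposited log2 TPM after ComBat correction of batch 1 (intestine) and batch 2 (liver). The pseudocount and the strand setting were not given in the sources used here, nor was whether the deposited TPM carry the TMM factors, and depth is unknown. ComBat shifts and rescales each gene within a batch, so fold changes are on that corrected scale.

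From the deposited log2 values, limma 3.58.1 in R 4.3.3 was fitted with a variance trend to the 3 groups of each tissue, and to 22 intestinal libraries for regional contrasts. Genes with a mean of at least 1 were tested. Permutation tests and correlations used Python 3.11.15 with numpy 2.4.6. The fits and tests were tested on simulated data. Named genes are the 4 members, up to 3 list genes with the smallest p per comparison, and the 3 genes most like each member; other genes named are annotation or marker genes, and 1 list gene is not reported here by name. The members and lists were chosen with earlier results of these data known. The study gives its RNA-seq group sizes over mice, so each library was taken as 1 mouse's tissue, while no text pairs libraries by replicate number. Replicates of a group differed by at least 0.177 on average per gene, so none was counted as a duplicate. Alternatives changed the filter, pseudocount, scaling, variance model, libraries and covariates.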

Additional observations from a re-analysis of the deposited data

Results flagged for a closer look

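In 49 groups of 4, 5 or 8 libraries (the members, Gm47528 and the means of the acinar and hepatocyte markers), 5 single libraries lay farther from the rest of their group than Dixon's limit at 95%, where chance alone gives about 1 in 20 groups. Apoa5 was 3.59 log2 TPM in duodenum SBR Vehicle replicate 1, the lowest of its group and a value shared with an ileal library, which may be a floor. Apoc3 was 10.18 in liver SBR WUSTL0717 replicate 3, the highest of its group. Gm47528 was 3.88 in ileum SBR WUSTL0717 replicate 4, above the other 3 of its group, which lay between 3.48 and 3.54. The mean of the pancreatic acinar markers was 7.70 in liver SBR Vehicle replicate 7, and the mean of the hepatocyte markers was 7.12 in liver SBR Vehicle replicate 2. The part of these 2 libraries' markers in the members' values was not tested beyond leaving each library out, after which hepatic Apoa4 was 2.60 and 2.71 higher in SBR Vehicle than in sham.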

How the results depend on the processing

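Limits: depth is unknown, so no counting error can be given, and 3 to 4 intestinal libraries a group leave wide intervals. The hepatic rise of Apoa4 was called under each of 12 alternative settings (2.31 to 3.12) and with each library left out (2.52 to 2.80). Where other results moved, the cause was not tested. Correlations of same-numbered libraries ran from -0.32 to 0.45, and between duodenum and ileum from -0.14 to 0.45. Without differently numbered pairs beside them, they cannot show whether replicate numbers pair libraries. The replicate block called 2 members, Apoa1 and Apoa4, between ileum and duodenum in sham. It gave Apoa4 -0.083 in SBR Vehicle against sham ileum. The acinar and hepatocyte covariates, chosen after seeing the data, called 0 members.

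Counts of members called changed as follows. In SBR WUSTL0717 against sham duodenum 0 became 2 with median centring and 1 with library weights, and 0 to 1 with libraries left out. In SBR Vehicle against sham liver 2 became 3 with median centring, quantile scaling or hepatocyte centring, 1 unmoderated and 1 with the compared groups alone, Apoc3 being lost in both, and 1 to 2 with libraries left out. In SBR WUSTL0717 against SBR Vehicle liver 0 became 2 with median centring, Apoc3 and Apoa5, and against sham liver 1 became 2 with median centring and 3 with hepatocyte centring. Between ileum and duodenum in sham 1 became 2 with epithelial centring, 0 unmoderated and 0 with the groups alone, and 0 to 1 with libraries left out. In SBR Vehicle 2 became 4 with epithelial centring, and in SBR WUSTL0717 2 became 1 with quantile scaling and 1 to 2 with libraries left out. Pairs in SBR Vehicle liver went from 5 to 0 with median centring and 1 to 6 with libraries left out.

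Directions also reversed, the called hepatic fall of Apoc3 among them. Median centring gave Apoa5 0.24 in SBR Vehicle against sham duodenum, Apoa1 -0.13 and Apoa5 -0.070 in SBR WUSTL0717 against sham liver, Apoa5 -0.56 and -0.25 between regions in the SBR Vehicle and SBR WUSTL0717 groups, and r of -0.20, -0.16 and -0.017 for Apoa1 with Apoa4, Apoc3 with Apoa4 and Apoc3 with Apoa5. Quantile scaling gave Apoa5 0.11 in SBR Vehicle against sham duodenum, Apoa1 -0.30 and Apoa4 -0.23 in SBR WUSTL0717 against SBR Vehicle duodenum, Apoa4 -0.078 in SBR Vehicle against sham ileum, Apoa5 -0.060 in SBR WUSTL0717 against sham liver, and Apoa5 -0.42 and -0.10 between regions in the resected groups. Library weights gave Apoa5 0.15 in SBR Vehicle against sham duodenum, Apoa1 0.043 and Apoa5 0.023 in SBR Vehicle against sham liver, and Apoa1 -0.024 in SBR WUSTL0717 against SBR Vehicle liver. Epithelial centring gave Apoa4 -0.35 in SBR Vehicle against sham ileum, Apoa5 -1.13 and -0.97 between regions in the resected groups, and Apoa1 -0.49 between regions in SBR WUSTL0717 mice. Hepatocyte centring gave Apoa1 0.48, Apoc3 0.091 and Apoa5 0.39 in SBR Vehicle against sham liver, Apoa1 -0.16, Apoa4 -0.20 and Apoa5 -0.0061 in SBR WUSTL0717 against SBR Vehicle liver, and Apoc3 0.12 in SBR WUSTL0717 against sham liver. A pseudocount of 5 gave Apoc3 minus Apoa1 -0.021 in SBR WUSTL0717 against SBR Vehicle ileum.

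With libraries left out, Apoa5 in duodenum ran from -0.34 to 0.16 (SBR Vehicle against sham), -0.045 to 0.37 (SBR WUSTL0717 against SBR Vehicle) and -0.16 to 0.36 (SBR WUSTL0717 against sham). Apoa4 ran from -0.56 to 0.87 in SBR Vehicle against sham ileum, Apoa1 from -0.074 to 0.093 in SBR Vehicle against sham liver, Apoc3 from -0.13 to 0.035 in SBR WUSTL0717 against sham liver, and the regional difference of the WUSTL0717 effect on Apoa5 from -0.11 to 0.51. Differences from Apoa1 ran from -0.15 to 0.25 for Apoc3 in SBR WUSTL0717 against SBR Vehicle ileum, -0.72 to 0.25 for Apoa4 and -1.20 to 0.13 for Apoa5 in SBR WUSTL0717 against sham ileum, -0.14 to 0.087 for Apoa4 in SBR WUSTL0717 against SBR Vehicle liver, and -0.0068 to 0.14 for Apoa5 in SBR WUSTL0717 against sham liver.

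Calls over all genes moved by more than 1.5 times under some setting in each comparison. For SBR Vehicle against sham they were 0 (range 0 to 2497) in duodenum, 55 (5 to 279) in ileum and 6663 (4180 to 14211) in liver. For SBR WUSTL0717 against SBR Vehicle they were 39 (2 to 85), 11 (1 to 18) and 652 (0 to 7667), and against sham 121 (1 to 1124), 343 (29 to 764) and 4580 (3120 to 10123). Between regions they were 2331 (1069 to 5549) in sham, 9068 (4826 to 10770) in SBR Vehicle and 8895 (4737 to 9811) in SBR WUSTL0717 mice, and 12 (1 to 1989) and 4 (1 to 9) for the regional differences of the SBR and WUSTL0717 effects.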
